A study of Homo sapiens with 16 samples.

Results

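The zinc finger genes considered here are those whose symbol is ZNF followed by a number, with or without 1 closing letter. Of 3139 regions downstream of genes with deposited FPKM values, which belonged to 3135 genes, 67 belonged to such ZNF genes, and all 67 genes were annotated as protein coding. FPKM is the number of fragments in a region scaled to its length and to the reads of the library, and each region was called as a DoG, a downstream-of-gene readthrough transcript, in at least one library. The members were therefore chosen by gene name and by the existence of a called region, with no threshold on the FPKM values.

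The libraries came from HEK293 cells, an established line from human embryonic kidney. Control cells received fresh medium, and cells in the DoG-inducing condition were kept for 9 h in 200 mM sorbitol, which imposes hyperosmotic stress, together with 100 µg/mL cycloheximide, which blocks translation. RNA was taken from both conditions by 4 preparations with 2 replicates each, so that there were 8 groups and 16 libraries, all stranded and depleted of rRNA. The conventional preparation takes the aqueous phase after extraction with acid guanidinium thiocyanate, phenol and chloroform. The hiAGPC preparation heats the lysate at 55 °C before phase separation. SERIPH takes the aqueous phase first (1st-step fraction), then washes the remaining interphase 3 times and heats it to release further RNA (2nd-step fraction). The DoG-inducing agents were always given together, so the parts of sorbitol and cycloheximide cannot be told apart.

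ZNF genes encode proteins with C2H2 zinc fingers, small zinc-binding folds that read short stretches of DNA. Many of these proteins also carry a KRAB domain, which recruits the corepressor TRIM28 and histone methylation to transposable elements and other targets. The genes arose by repeated duplication and many lie side by side in clusters, above all on chromosome 19. Readthrough arises when the nascent RNA is not cleaved at the polyadenylation signal, usually AATAAA or a close variant, and RNA polymerase II continues past the gene end. Hyperosmotic stress is a known inducer of such transcripts, which stay in the nucleus.

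Of the 67 members, 30 lay on chromosome 19, a share of 44.8%, against 5.92% of the 3127 DoG genes with FPKM that were found in GENCODE v44. The called region began within 1 kb of the annotated gene end for 65 of the 67, a position largely set by calling DoGs from annotated ends. The next protein-coding or lncRNA gene on the same strand was itself a ZNF gene for 20 members, and it began between 3.127 and 875.089 kb past the gene end, with a median of 21.911 kb. The longest called region reached another gene on the same strand for 28 members (41.8%, against 40.0% of all DoG genes), and for 6 members a gene so reached was a ZNF gene. FPKM over such a region can include RNA of the gene it reaches, and the 2 cannot be told apart in these values. This holds also for named members where it is not repeated below, among them ZNF17, ZNF146, ZNF573, ZNF609, ZNF621 and ZNF622. A further 11 ZNF genes had a called region and no FPKM value. The ends of all 11 lay inside the called DoG region of another gene, as did those of all 370 DoG genes without FPKM.

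The sequences below show the annotated gene end and the start of the called region in 5 members on which the results turn, all read from GRCh38. DoGs were called from annotated gene ends, so the first base of a region is not a measured start of readthrough. ZNF207 was the only member called in all 16 libraries, ZNF276 was called in all 8 DoG-inducing libraries and in no control library, ZNF691 had a region of 319.337 kb, and ZNF254 and ZNF138 were called in all 8 control libraries and in no DoG-inducing one. The first line of each pair gives the last 30 bases of the annotated gene, with AATAAA or ATTAAA in capitals where these bases hold it, and the second line the first 60 bases of the called region.
ZNF207 gene end, chr17:32381856-32381885 (plus strand): agatgAATAAAatctttcatttattattta
ZNF207 DoG start, chr17:32381886-32381945: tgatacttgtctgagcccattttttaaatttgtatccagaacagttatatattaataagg
ZNF276 gene end, chr16:89740896-89740925 (plus strand): cATTAAAattacctgtgctgtcattctaaa
ZNF276 DoG start, chr16:89740926-89740985: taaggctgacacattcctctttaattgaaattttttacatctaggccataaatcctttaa
ZNF691 gene end, chr1:42852448-42852477 (plus strand): gtgattagcagtaaaacccttcaatgaaaa
ZNF691 DoG start, chr1:42852478-42852537: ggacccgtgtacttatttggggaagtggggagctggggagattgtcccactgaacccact
ZNF254 gene end, chr19:24129939-24129968 (plus strand): tATTAAAgataaaccttaggtgtaAATAAA
ZNF254 DoG start, chr19:24129969-24130028: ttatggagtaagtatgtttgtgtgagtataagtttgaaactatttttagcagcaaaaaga
ZNF138 gene end, chr7:64833652-64833681 (plus strand): attataaatgcaattactgtcaaaactcag
ZNF138 DoG start, chr7:64833682-64833741: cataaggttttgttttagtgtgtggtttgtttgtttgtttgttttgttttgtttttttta

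In the last 50 bases before the first base of the called region, searched on the gene strand, AATAAA was found in 26 members (38.8%) and in 52.1% of all DoG genes. The variant ATTAAA was found in 20 members (29.9%) and in 16.5% of all DoG genes. A gene can hold both, and one or the other was found in 44 members (65.7%), as in 65.7% of all DoG genes. ZNF691 was among the members with neither in this window. Among the members called only in control libraries, 11 of 13 held one or the other, against 26 of the 41 called only in DoG-inducing libraries and 7 of the 13 called in both. Over all DoG genes these shares were 64.2%, 66.4% and 63.0%. These are counts of letters in a window and no test was made of them.

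Between the 2 replicates of a group, 55.6% to 82.1% of the members called in either were called in both. In control cells, 16 members were called in both replicates of the conventional preparation, 17 of hiAGPC, 9 of the SERIPH 1st-step fraction and 16 of the 2nd-step fraction. In the DoG-inducing condition these numbers were 8, 23, 5 and 36. The conventional and 1st-step preparations thus listed fewer members than in control cells, and hiAGPC and the 2nd-step fraction listed more. Over all genes the counts were 291, 424, 226 and 595 in control cells and 342, 1555, 279 and 2031 in the DoG-inducing condition. The members' share of the genes listed per library was 2.61% to 5.41% in the 8 control libraries and 1.43% to 2.39% in the 8 DoG-inducing libraries, with no overlap between them. The 11 ZNF genes without FPKM count among all genes but not among the members. These numbers and shares can therefore understate those of all ZNF genes.

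**Figure D1:**
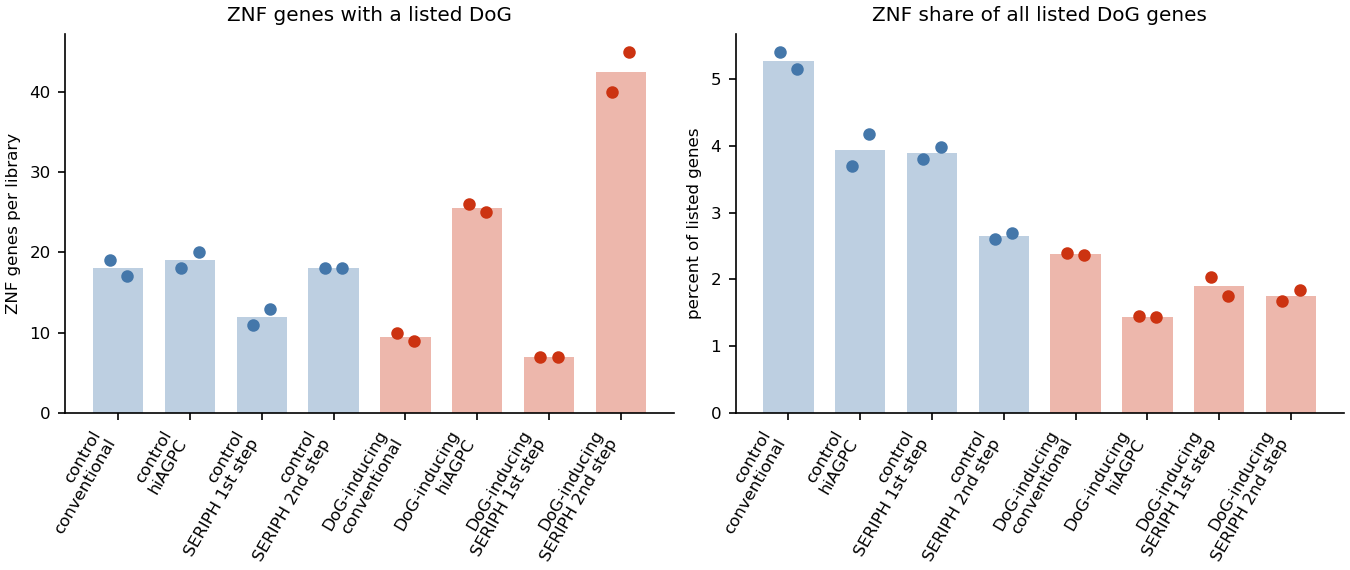
Left, members (ZNF genes with FPKM) with a called DoG in each library. Right, their share of all genes with a called DoG, in percent. The 11 ZNF genes without FPKM count only among all genes. Points are the 2 libraries of each group and bars their mean, blue for control and red for the DoG-inducing condition. The number was highest in the DoG-inducing SERIPH 2nd-step libraries (40 and 45), whereas the share was highest in the control conventional libraries (5.41% and 5.15%).

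Over both conditions, 13 members were called only in control libraries, 41 only in DoG-inducing libraries and 13 in both. These shares were 19.4%, 61.2% and 19.4%, against 12.1%, 74.1% and 13.8% of all DoG genes. Of the 13 control-only members, 8 (61.5%) lay on chromosome 19, against 44.8% of all members and 5.04% of the 377 DoG genes called only in control. No region longer than 10 kb, the shortest that is called, was found for 8 (61.5%), against 48.0% of those 377 genes. The control-only members were ZNF77, ZNF112, ZNF138, ZNF254, ZNF283, ZNF343, ZNF383, ZNF398, ZNF417, ZNF559, ZNF609, ZNF680 and ZNF724. The median of the longest region per gene was 20 kb for the members and 30 kb for all DoG genes.

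FPKM of the members ranged from 0 to 11.71. Their median per library was 0.19 to 0.3 in control libraries, where that of all 3139 DoGs was 0.07 to 0.1. In the DoG-inducing condition the members had medians of 0.57 and 0.57 in hiAGPC and of 0.77 and 0.72 in the SERIPH 2nd-step fraction, against 0.58 and 0.58 and against 0.86 and 0.84 for all DoGs. In the conventional and 1st-step libraries of this condition the members' medians were 0.16 to 0.19, and those of all DoGs 0.14 to 0.16. The median ZNF region thus lay above the median DoG in control cells, and below it in the 2nd-step fraction of the DoG-inducing condition. In hiAGPC of that condition the 2 medians were 0.01 apart, the step in which FPKM is listed. A region called in control libraries had to be high there. Of the members 19.4% were called only in control and 19.4% in both conditions, against 12.1% and 13.8% of all DoG genes. Because FPKM is scaled within each library, a rise in DoG RNA and a fall in other RNA cannot be told apart.

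**Figure D2:**
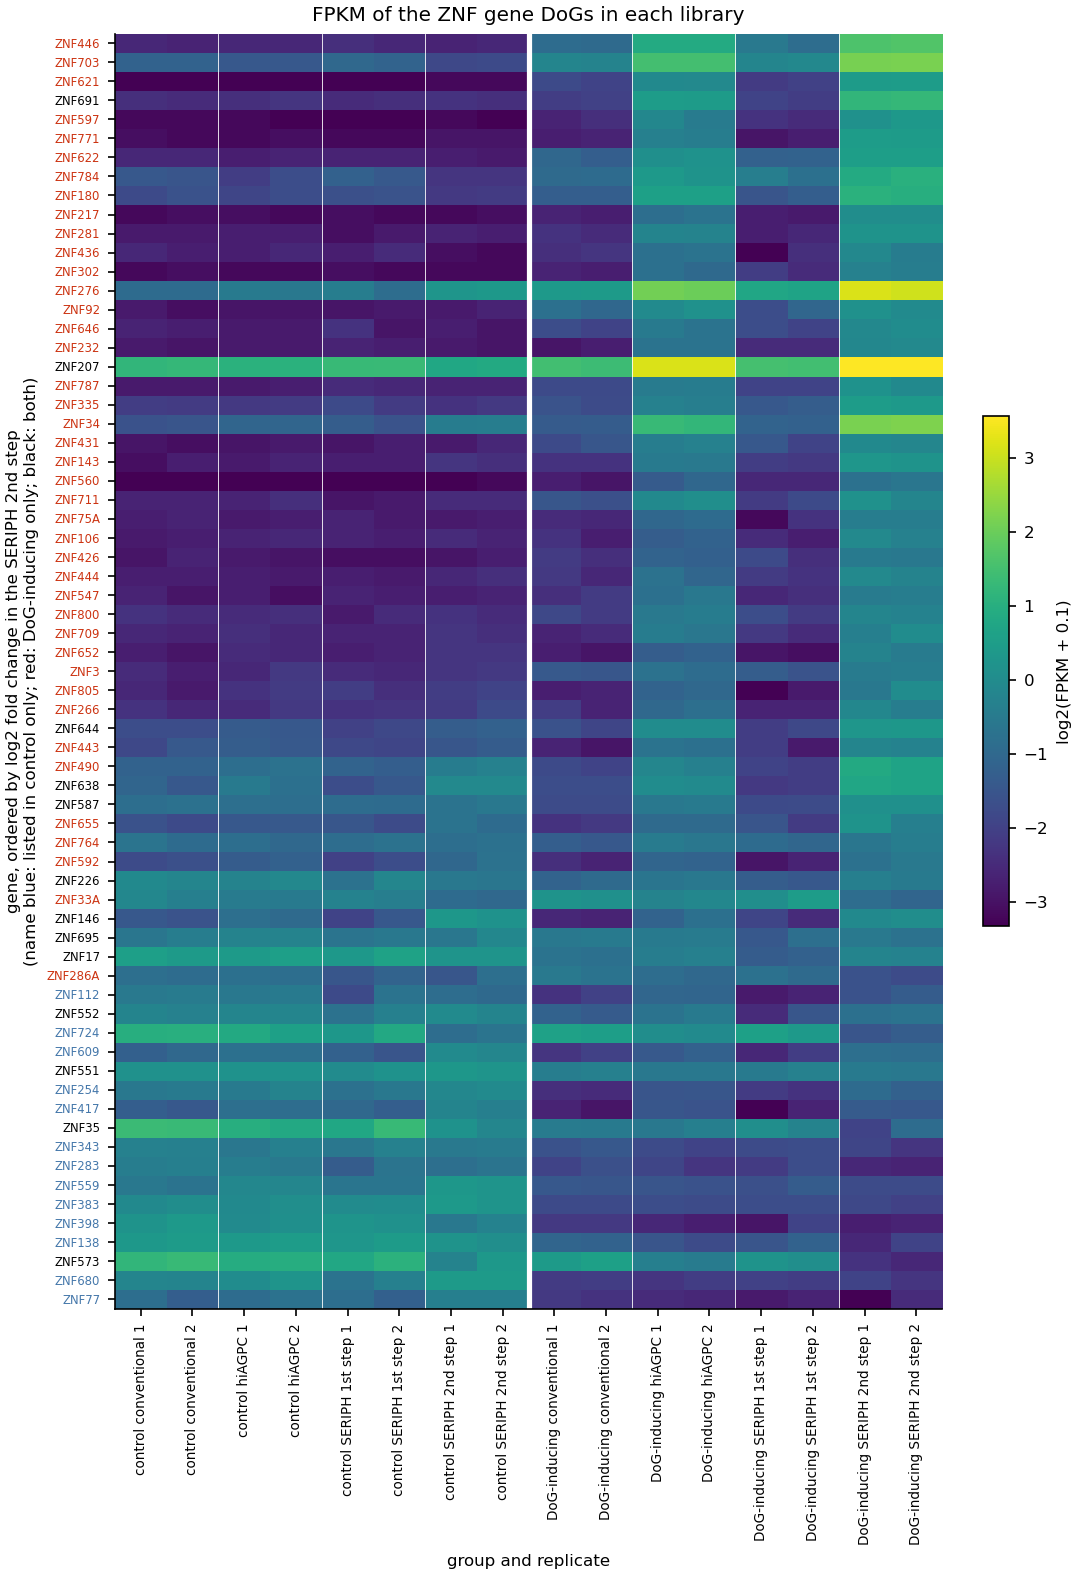
Each row is 1 of the 67 ZNF gene DoGs and each column 1 of the 16 libraries, with colour for log2(FPKM + 0.1). Rows are ordered by the log2 fold change in the SERIPH 2nd-step fraction and names are coloured by the condition in which the DoG was called. The upper rows brighten in the DoG-inducing hiAGPC and 2nd-step columns, the lowest rows darken in the DoG-inducing columns, and ZNF207 reaches the highest value (11.71).

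DoG-inducing and control cells were compared within each preparation on the scale log2(FPKM + 0.1), which understates changes of low values, and a DoG was called higher or lower at a limma adjusted p under 0.05 with a log2 change of at least 1. A region has FPKM values only because it was called somewhere, so a member called in a single condition had to be high there. Counts over members therefore describe them and support nothing. The same holds for the changes, p-values and lack of overlap given below for single members called in 1 condition only. In the SERIPH 2nd-step fraction, 39 of 67 members were higher in the DoG-inducing condition and 11 lower, whereas with each library centred on its median DoG 7 were higher and 30 lower. Of all DoGs, 86.3% were called, 74.6% higher and 11.7% lower. The shares of all DoGs here and below are before centring. Counts after centring have no such share beside them, so they cannot be read as a trait of the members. The median log2 change was 1.78 over the members and 2.38 over all DoGs. In hiAGPC, 37 members were higher and 11 lower (5 and 30 after centring), against 70.2% and 9.14% of all DoGs (79.3% in all), and the medians were 1.42 and 1.86.

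In the conventional preparation, 9 members were higher and 15 lower (2 and 25 after centring), against 22.2% and 11.0% of all DoGs (33.2% in all). The median log2 change was 0.09 over the members and 0.44 over all DoGs. In the SERIPH 1st-step fraction, 7 members were higher and 12 lower (2 and 24 after centring), against 21.8% and 10.6% of all DoGs (32.4% in all), with medians of -0.01 and 0.43. At these thresholds more members were called lower than higher in both preparations, but at the adjusted p alone 29 were higher and 27 lower in the conventional preparation and 30 and 27 in the 1st-step fraction. Of all DoGs, 1819 were higher and 684 lower at the adjusted p alone in the conventional preparation, and 1789 and 691 in the 1st-step fraction. The calls rest on the threshold of log2 change, as most members lay below an FPKM of 1: with a pseudocount of 1 the calls fell to 13 in the 2nd-step fraction, 7 in hiAGPC, 1 in the conventional preparation and 0 in the 1st-step fraction, where 51 members had an unadjusted p under 0.05 by limma.

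Changes are given next by the condition in which a member had been called, which in large part sets their direction. Of the 41 members called only in DoG-inducing libraries, 36 were higher and 0 lower in the 2nd-step fraction, with a median of 2.57, against 92.3% and 0.259% of the 2319 such DoGs overall. Of the 13 called only in control libraries, 0 were higher and 9 lower, with a median of -1.86, against 0% and 79.8% of 377 such DoGs overall. Of the 13 members called in both conditions, 3 were higher and 2 lower, with a median of -0.25, whereas of 435 such DoGs overall 197 were higher and 58 lower, with a median of 0.69. On chromosome 19, 15 of 30 members were higher and 6 lower in the 2nd-step fraction, with a median of 0.95, and elsewhere 24 of 37 were higher and 5 lower, with a median of 2.37. This difference between locations was not tested, and the conditions in which members were called differed as well. On chromosome 19, 26.7% were called only in control and 50.0% only in DoG-inducing libraries, against 13.5% and 70.3% elsewhere. No share of all DoGs by location stands beside these counts.

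**Figure D3:**
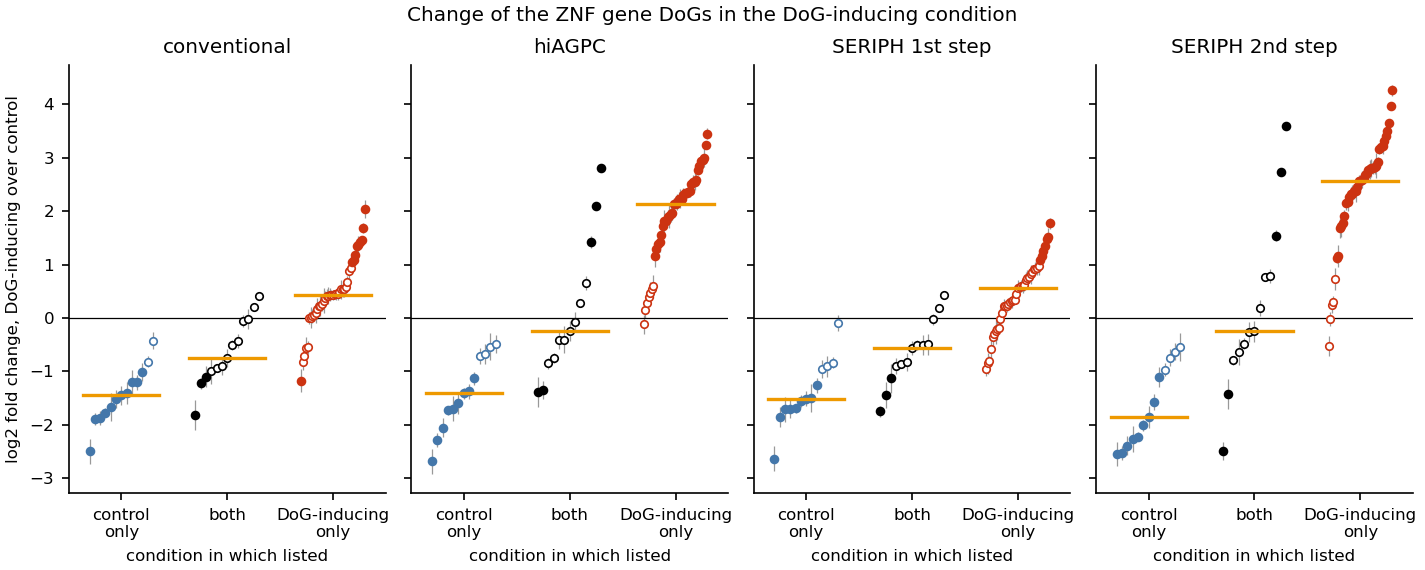
Log2 fold change of each ZNF gene DoG, DoG-inducing over control, in the 4 preparations, by the condition in which the DoG was called. Points are genes with the SE from limma, filled where called, and orange lines are medians of each class. In the SERIPH 2nd-step panel the medians are -1.86 for members called only in control, -0.25 for those called in both and 2.57 for those called only in the DoG-inducing condition.

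The members with the highest changes were ZNF446, ZNF703, ZNF621, ZNF691 and ZNF597 in the 2nd-step fraction. ZNF446, which encodes a protein with SCAN and KRAB domains, had 0.06 to 0.09 FPKM over the 8 control libraries. In the DoG-inducing condition it had 0.44 and 0.42 in the conventional preparation, 1.76 and 1.75 in hiAGPC, 0.59 and 0.45 in the 1st-step and 3.02 and 3.13 in the 2nd-step fraction. Every DoG-inducing library lay above every control library. The longest region of ZNF446 reached ENSG00000273901, whose own RNA may be counted in it. The log2 change was 4.27 ± 0.102 (SE; limma adjusted p = 6.59e-13) in the 2nd-step fraction and 3.45, 1.68 and 1.78 in hiAGPC, the conventional preparation and the 1st-step fraction, all of which were called.

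ZNF703, a corepressor gene amplified in luminal breast cancers, had 0.18 to 0.4 FPKM in control libraries and 4.36 and 4.41 in the DoG-inducing 2nd-step libraries. It had 2.74 and 2.76 in DoG-inducing hiAGPC and 0.74 to 0.83 in the conventional and 1st-step libraries, again with no overlap with control. The changes of 3.98 ± 0.0709 (SE; limma adjusted p = 1.03e-13) in the 2nd-step fraction and 2.94 in hiAGPC were called, and those of 0.93 and 0.92 in the conventional and 1st-step preparations were below the threshold of size. Its longest region spanned 330 kb and reached ERLIN2, PLPBP and ADGRA2, whose own RNA may be counted in it.

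ZNF621 was listed at 0 in every control library of the conventional, hiAGPC and 1st-step preparations and at 0.01 and 0.01 FPKM in the control 2nd-step libraries. In the DoG-inducing condition it had 1.26 and 1.31 in the 2nd-step fraction, 0.86 and 0.84 in hiAGPC and 0.13 to 0.19 in the conventional and 1st-step libraries. Its log2 change in the 2nd-step fraction was 3.65 ± 0.0718 (SE; limma adjusted p = 1.8e-13). ZNF597, an imprinted gene, had at most 0.01 FPKM in control libraries, 1.01 and 1.17 in the DoG-inducing 2nd-step libraries and 0.81 and 0.63 in hiAGPC, with log2 changes of 3.50 ± 0.122 (SE; limma adjusted p = 1.76e-11) and 2.96.

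ZNF622, whose protein takes part in maturation of the large ribosomal subunit, was called in all 8 DoG-inducing libraries and in no control library. Its FPKM was 0.04 to 0.07 in control libraries and 0.32 to 0.39 in the DoG-inducing conventional and 1st-step libraries. It was 0.98 and 1.04 in hiAGPC and 1.34 and 1.34 in the 2nd-step fraction. The 7 members called higher in every one of the 4 preparations were ZNF3, ZNF92, ZNF276, ZNF431, ZNF446, ZNF621 and ZNF622. Calls across the preparations were counted over the members only, here and below, so no share of all DoGs stands beside them. ZNF92, a KRAB zinc finger gene, had 0.02 to 0.06 FPKM in control libraries and 0.48 and 0.39 in the DoG-inducing conventional libraries, and its log2 change of 2.04 ± 0.174 (SE; limma adjusted p = 5.2e-07) was the highest of the members in that preparation. ZNF431, also a KRAB gene, rose by 1.37 there and by 2.59 in the 2nd-step fraction on the log2 scale.

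By level, ZNF207, ZNF276, ZNF34, ZNF703 and ZNF446 led in the DoG-inducing 2nd-step fraction. ZNF207 encodes a spindle and kinetochore protein. It had 1.6 to 2.45 FPKM in control libraries, 2.51 to 2.81 in the DoG-inducing conventional and 1st-step libraries, 8.96 and 8.95 in hiAGPC and 11.71 and 11.51 in the 2nd-step fraction. The log2 change was 2.74 ± 0.0558 (SE; limma adjusted p = 2.27e-13) in the 2nd-step fraction and 2.10 ± 0.0558 (SE; limma adjusted p = 2.72e-12) in hiAGPC. In the conventional and 1st-step preparations it was 0.20 and 0.19, significant but not called. Its longest region, 100 kb, reached PSMD11, a proteasome subunit gene.

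ZNF276 had 0.43 to 0.65 FPKM in the control conventional, hiAGPC and 1st-step libraries and 1.1 and 1.18 in the control 2nd-step libraries. In the DoG-inducing condition it had 8.94 and 8.31 in the 2nd-step fraction, 4.18 and 3.91 in hiAGPC and 1.23 to 1.57 in the conventional and 1st-step libraries. The log2 changes were 2.81 ± 0.118 (SE; limma adjusted p = 1.07e-10), 2.59, 1.34 and 1.34 in the 2nd-step, hiAGPC, conventional and 1st-step preparations. Its longest region, 170 kb, reached SPIRE2 and TCF25.

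ZNF34 rose from 0.64 and 0.66 FPKM in the control 2nd-step libraries to 4.45 and 4.58, a log2 change of 2.62 ± 0.0901 (SE; limma adjusted p = 1.58e-11). In the conventional preparation it had 0.23 and 0.25 in control and 0.29 and 0.3 in the DoG-inducing condition, a change of 0.22 that was not called. Its longest region, 241.709 kb, reached ARHGAP39 and ZNF251. The 2nd-step changes of ZNF207, ZNF276 and ZNF34 lay close to the median of all DoGs, and after centring they were 0.49, 0.57 and 0.37 and no longer called. In the conventional preparation centring turned ZNF207 to -0.35 and ZNF34 to -0.34.

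**Figure D4:**
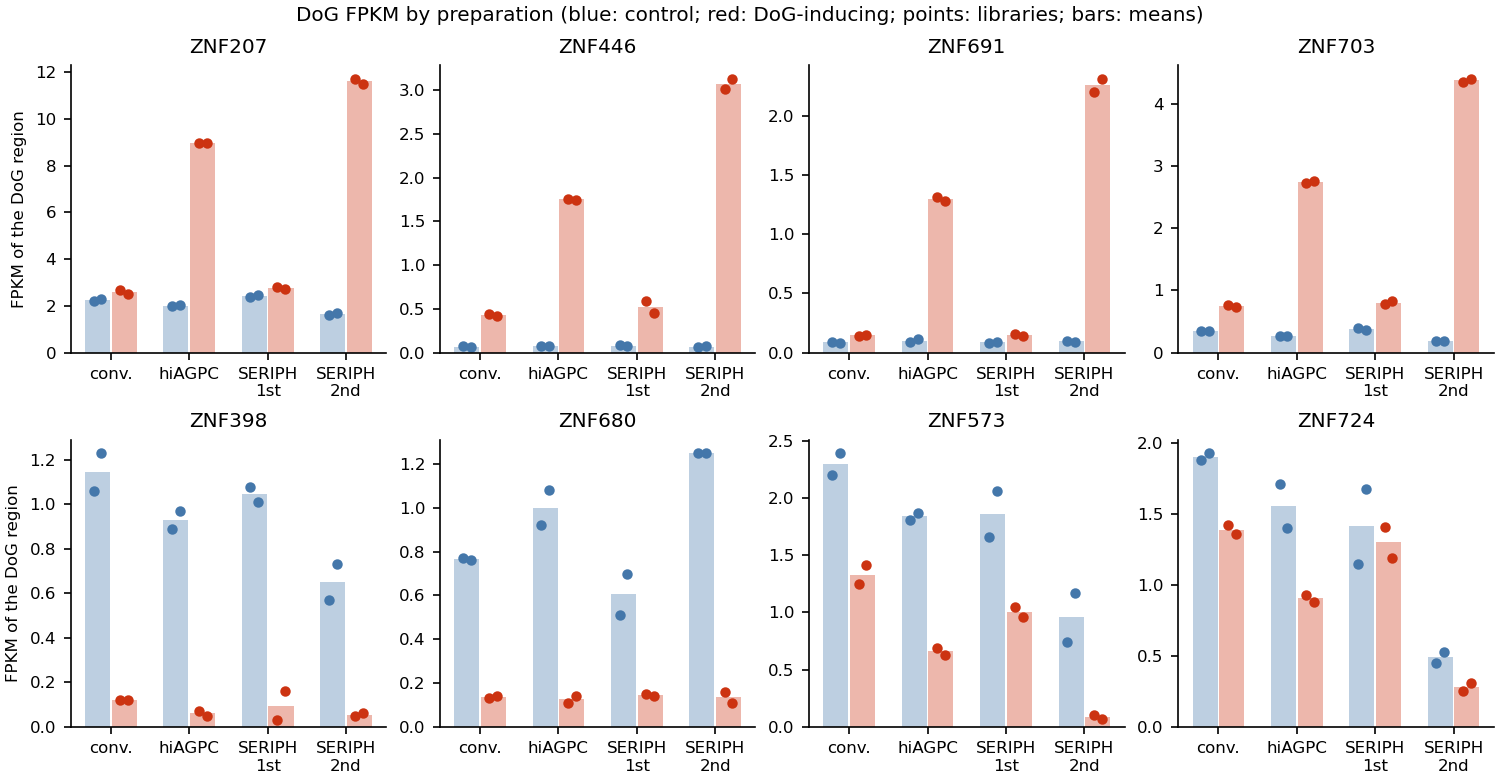
FPKM of 8 ZNF gene DoGs in the 4 preparations, with points for the 2 libraries of each group, bars for their mean, blue for control and red for the DoG-inducing condition. ZNF207, ZNF446, ZNF691 and ZNF703 are highest in the DoG-inducing 2nd-step fraction, ZNF398 and ZNF680 are lower in the DoG-inducing condition in every preparation, and ZNF573 and ZNF724 are lowest in the DoG-inducing 2nd-step fraction.

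Lower members included ZNF398, ZNF680, ZNF77, ZNF573, ZNF138, ZNF254, ZNF417 and ZNF17. ZNF398, whose KRAB protein interacts with an oestrogen receptor, had 0.57 to 1.23 FPKM over the control libraries and 0.03 to 0.16 over the DoG-inducing libraries, with no overlap. Its log2 change was -2.50 in the conventional preparation, -2.69 in hiAGPC, -2.64 in the 1st-step and -2.27 ± 0.237 (SE; limma adjusted p = 1.1e-06) in the 2nd-step fraction. All were called, and in the conventional, hiAGPC and 1st-step preparations no member was lower.

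ZNF680 had 0.51 to 1.25 FPKM in control libraries, with its highest values (1.25 and 1.25) in the 2nd-step fraction, and 0.11 to 0.16 in DoG-inducing libraries. Its log2 change was -1.88, -2.29, -1.51 and -2.53 ± 0.136 (SE; limma adjusted p = 1.35e-09) in the conventional, hiAGPC, 1st-step and 2nd-step preparations. ZNF77, a KRAB gene called in 1 control library, had 0.69 and 0.68 FPKM in the control 2nd-step libraries and 0 and 0.08 in the DoG-inducing ones, a change of -2.55 ± 0.229 (SE; limma adjusted p = 2.45e-07). ZNF138, a KRAB gene, had 0.96 to 1.31 FPKM in control libraries and 0.07 to 0.37 in DoG-inducing libraries, and its change of -2.06 ± 0.177 (SE; limma adjusted p = 1.86e-07) in hiAGPC was called, as were those in the other preparations. The 7 members called lower in every one of the 4 preparations were ZNF35, ZNF77, ZNF138, ZNF343, ZNF383, ZNF398 and ZNF680, again without a share of all DoGs.

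ZNF254 was called at 15 to 30 kb in all 8 control libraries. It had 0.49 to 0.88 FPKM there, 0.09 and 0.08 in the DoG-inducing conventional libraries and 0.43 and 0.34 in the DoG-inducing 2nd-step libraries. Its log2 change was -1.90 ± 0.116 (SE; limma adjusted p = 3.33e-08) in the conventional preparation and -0.97 in the 2nd-step fraction, and the second did not reach the size threshold. ZNF17 fell by 1.75 on the log2 scale in the 1st-step fraction, from 1.17 and 1.46 to 0.3 and 0.34 FPKM, and changed by -0.48 in the 2nd-step fraction, which was not called. ZNF417, which has a near-identical paralogue in ZNF587, fell by 1.86 in the 1st-step fraction, from 0.4 and 0.32 to 0 and 0.06 FPKM. How reads shared by such copies were counted beyond the use of uniquely mapped reads is not given in the sources used here.

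No call in any of the 4 preparations was made for 11 members, among them ZNF551, ZNF764 and ZNF695, and this was not counted over all DoGs. ZNF551 had 0.9 to 1.14 FPKM in control libraries and 0.57 to 0.71 in DoG-inducing libraries, with log2 changes from -0.80 to -0.50 over the 4 preparations. ZNF764 had 0.4 to 0.53 and 0.27 to 0.66 FPKM, so that its ranges overlapped. ZNF695 had 0.53 to 0.81 and 0.27 to 0.63 FPKM, and its log2 changes lay between -0.50 and -0.03. ZNF443, a KRAB gene, was the only member called higher in one preparation and lower in another. It fell from 0.18 and 0.28 to 0.06 and 0.03 FPKM in the conventional preparation, a log2 change of -1.18 ± 0.211 (SE; limma adjusted p = 0.000273), and rose from 0.26 and 0.3 to 0.77 and 0.73 in the 2nd-step fraction, a change of 1.16 ± 0.211 (SE; limma adjusted p = 0.000179). The rise lay below the median change of all DoGs (2.38), and after centring ZNF443 was called lower in the 2nd-step fraction as well (-1.08). The members of this paragraph were chosen after their values were seen.

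The preparations were then compared within each condition. FPKM was taken over a region as long as the longest listed one for 66 of the 67 members. A member called in a single preparation thus had to be high there. Counts and p-values between preparations therefore describe the members and support nothing. In control cells, hiAGPC and the conventional preparation differed for 0 of the 67 members by limma, with 15 at an unadjusted p under 0.05, and 1.08% of all DoGs were called. The 2nd-step fraction differed from the 1st-step fraction for 6 members, 4 higher and 2 lower (3 and 4 after centring), against 11.0% and 3.28% of all DoGs (14.2% in all). From hiAGPC it differed for 2 members, 1 higher and 1 lower (0 and 3 after centring), against 2.33% of all DoGs. ZNF146, which encodes a protein made almost wholly of zinc fingers, had 0.16 and 0.27 FPKM in the control 1st-step and 1.14 and 1.03 in the 2nd-step libraries, a log2 difference of 1.93 ± 0.195 (SE; limma adjusted p = 6.91e-06). ZNF638, a nuclear DNA-binding protein gene, had 0.21 and 0.27 and 0.84 and 0.85 (log2 difference 1.48), and ZNF609 had 0.34 and 0.25 and 0.88 and 0.8 (1.26).

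In the DoG-inducing condition, hiAGPC exceeded the conventional preparation for 44 members and was lower for 0, against 68.8% and 0.478% of all DoGs (69.3% in all), and centring of the libraries turned this into 2 and 17. The median log2 difference was 1.31 over the members and 1.40 over all DoGs. The 2nd-step fraction exceeded the 1st-step fraction for 49 members and was lower for 4 (3 and 17 after centring), against 79.3% and 2.96% of all DoGs (82.3% in all), with medians of 1.87 and 1.99. The largest differences were those of ZNF34, ZNF771 and ZNF691. ZNF34 had 0.36 and 0.34 FPKM in the DoG-inducing 1st-step and 4.45 and 4.58 in the 2nd-step libraries, a log2 difference of 3.36 ± 0.0901 (SE; limma adjusted p = 4.97e-12). ZNF771 had 0.03 and 0.05 and 1.29 and 1.27, a difference of 3.31 ± 0.085 (SE; limma adjusted p = 3.72e-12). ZNF691 had 0.16 and 0.14 and 2.2 and 2.31, a difference of 3.24 ± 0.0788 (SE; limma adjusted p = 3.21e-12). In none of these did the libraries overlap. The longest region of ZNF771 reached ITGAL, and that of ZNF691 reached SLC2A1-DT and CFAP144 among others, whose own RNA may be counted.

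Between the 2nd-step fraction and hiAGPC in the DoG-inducing condition, 3 members were called higher and 2 lower (0 and 7 after centring), against 6.91% and 1.75% of all DoGs (8.67% in all). At the adjusted p alone, 40 members were higher and 8 lower, but no share of all DoGs at that threshold stands beside these counts. The median log2 difference was 0.45 over the members, close to the 0.52 over all DoGs. ZNF276 (1.07), ZNF106 (1.03) and ZNF490 (1.00) were the higher ones, on the log2 scale. ZNF106, which encodes an RNA-binding protein, had 0.31 and 0.35 FPKM in hiAGPC and 0.84 and 0.72 in the 2nd-step fraction, and ZNF490 had 0.8 and 0.7 and 1.7 and 1.5. Both lay at the size threshold, and the DoG region of ZNF490 reached ZNF564.

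Some members were instead lowest in the 2nd-step fraction. ZNF573, a KRAB gene of chromosome 19, had 1.25 and 1.41 FPKM in the DoG-inducing conventional libraries, 1.05 and 0.96 in the 1st-step, 0.69 and 0.63 in hiAGPC and 0.1 and 0.07 in the 2nd-step libraries. The log2 difference of the 2nd from the 1st step was -2.58 ± 0.169 (SE; limma adjusted p = 1.11e-08) and that from hiAGPC was -2.04 ± 0.169 (SE; limma adjusted p = 2.21e-06). ZNF724 had 1.15 and 1.68 FPKM in the control 1st-step and 0.45 and 0.53 in the control 2nd-step libraries, and 1.41 and 1.19 and 0.25 and 0.31 in those of the DoG-inducing condition. Its 2nd-step level was lower than the 1st-step level by limma in control cells (-1.34, adjusted p = 2.42e-05) and in the DoG-inducing condition (-1.88, adjusted p = 1.34e-07), and lower than hiAGPC in both (-1.49 and -1.41). ZNF35 was also lower in the 2nd than in the 1st step in control cells (1.03 and 0.79 against 1.63 and 2.38 FPKM) and in the DoG-inducing condition (0.16 and 0.44 against 0.96 and 0.74). ZNF33A, the remaining member of the 4 lower in the DoG-inducing condition, had 0.96 and 1.29 FPKM in the 1st and 0.45 and 0.37 in the 2nd step.

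Whether the effect of the DoG-inducing condition differed between preparations was tested by the interaction in the same model. ZNF436 was called only in DoG-inducing 2nd-step libraries, and ZNF771 only in DoG-inducing hiAGPC and 2nd-step libraries. Members called in some preparations alone had to be high there, so the interactions describe them and support nothing. For 42 members the log2 change in hiAGPC was higher than the conventional one and for 0 it was lower (1 and 14 after centring), against 64.0% and 0.733% of all DoGs (64.7% in all). The log2 change was higher in the 2nd-step than in the 1st-step fraction for 43 and lower for 3 (6 and 21 after centring), against 72.9% and 4.21% of all DoGs (77.1% in all). For ZNF691, the DoG-inducing condition left 0.14 and 0.15 FPKM in the conventional preparation beside 0.09 and 0.08 in control, whereas hiAGPC rose from 0.09 and 0.11 to 1.31 and 1.28, a difference in log2 change of 2.40 ± 0.112 (SE; limma adjusted p = 4.99e-09). Between the SERIPH fractions that difference was 3.16 ± 0.112 (SE; limma adjusted p = 2.15e-10). ZNF436, a KRAB gene with 0.02 and 0.01 FPKM in the control and 0.83 and 0.64 in the DoG-inducing 2nd-step libraries, had a difference of 3.11 ± 0.327 (SE; limma adjusted p = 1.75e-06), and one of its 1st-step libraries was listed at 0. The effect was more negative in the 2nd-step fraction for ZNF573 (-1.67), ZNF559 (-1.17) and ZNF680 (-1.02).

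The called regions also differed in length. Among members listed in both replicates of both hiAGPC and the 2nd-step fraction, the mean region of the 2nd-step fraction was longer for 16, shorter for 3 and equal for 2 of 21 in the DoG-inducing condition, against 75.2% longer and 8.76% shorter of 1290 genes overall. For 10 members each 2nd-step region was longer than either hiAGPC region, and for 0 members each was shorter, against 46.0% and 2.87% of all genes. The median ratio of lengths was 1.4 over the members and 1.36 over all genes. Most of the members with longer regions reached another gene. Among those that reached none, ZNF143, ZNF587, ZNF597 and ZNF800 were longer and ZNF431, ZNF711 and ZNF92 shorter, which was not counted over all genes. In control cells, the 2nd-step region was longer for 4, shorter for 0 and equal for 8 of 12 members, against 47.0% longer and 7.53% shorter of 372 genes.

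ZNF703 had the longest region, 270 and 279.877 kb in the hiAGPC libraries and 330 and 329.877 kb in the 2nd-step libraries, against 70 and 70 kb in the conventional and 60 and 60 kb in the 1st-step libraries. ZNF691 had regions of 135 and 190 kb in hiAGPC and of 319.337 and 290 kb in the 2nd-step fraction, and of 10 kb in both conventional libraries. The largest ratio, 4.95, was that of ZNF281, a transcription factor gene linked to pluripotency, with 50 and 55 kb in hiAGPC and 260 kb in both 2nd-step libraries. The longest regions of ZNF691 and ZNF281 reached other genes, among them CFAP144 for ZNF691 and LINC00862 for ZNF281. ZNF587 (ratio 3.8) had 10 and 15 kb in hiAGPC and 55 and 40 kb in the 2nd-step fraction, and ZNF490 (3.04) had 20 kb in both hiAGPC and 60.727 kb in both 2nd-step libraries. The regions of ZNF431, ZNF711 and ZNF92 were shorter in the 2nd-step fraction, with ratios of 0.833, 0.857 and 0.867, and their libraries overlapped. ZNF207 had 100 kb in all DoG-inducing hiAGPC and 2nd-step libraries, and in control cells 25 kb in both hiAGPC and 30 kb in both 2nd-step libraries.

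**Figure D5:**
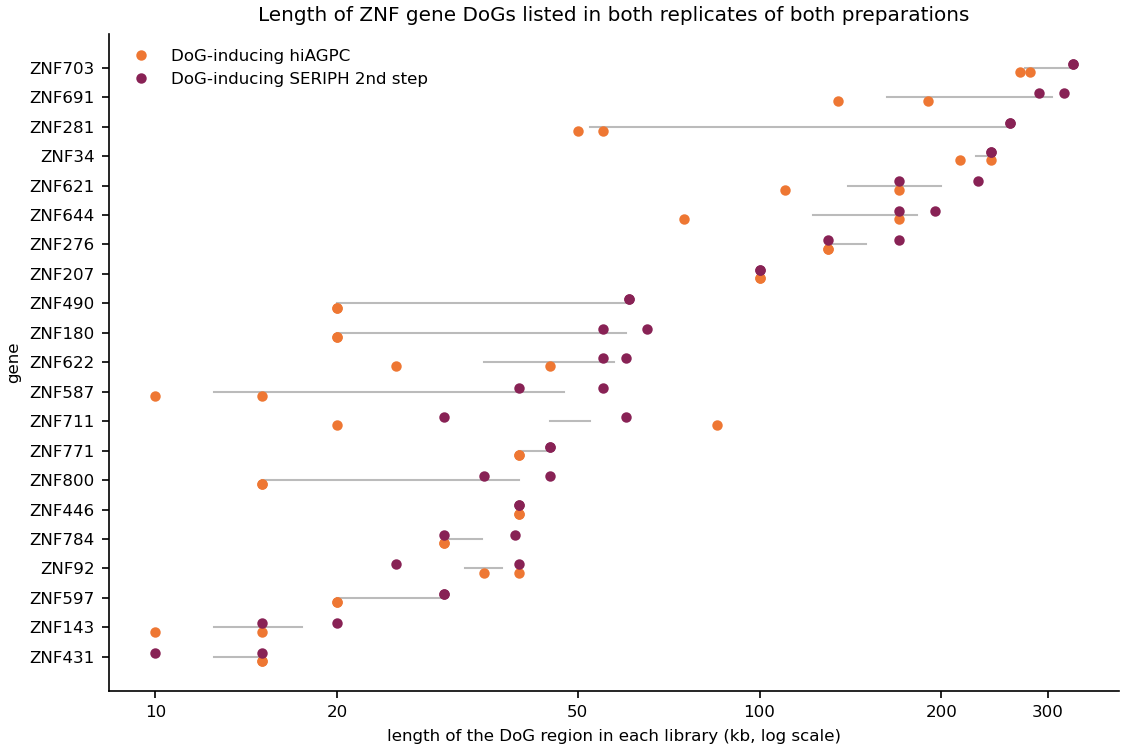
Length of the called region in each DoG-inducing hiAGPC library (orange) and SERIPH 2nd-step library (purple) for 21 ZNF genes listed in both replicates of both, on a log axis, with a grey line between the means. The 2nd-step mean is longer for 16 genes, and the widest gap is that of ZNF281, from 52.5 to 260 kb.

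In control cells, the longest 2nd-step regions were those of ZNF551 and ZNF559, with means of 35 kb each, ZNF207 with 30 kb, ZNF644 with 27.5 kb and ZNF680 with 25 kb. ZNF551 had 45 and 25 kb in the 2nd-step fraction and 20 kb in both hiAGPC libraries, and ZNF559 had 35 kb in all of these. ZNF551 and ZNF559 reached ZNF776 and ZNF177, the next ZNF genes on the strand. Under the DoG-inducing condition ZNF551 was called at 10 and 15 kb in the 2nd-step fraction only, and ZNF559 in no library. ZNF207, ZNF35, ZNF138, ZNF254, ZNF552 and ZNF587 were called in all 8 control libraries.

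Genes of related names and of the KRAB corepressor pathway were set beside the members. Of 21 DoGs of other zinc finger genes (ZBTB, ZFP, ZKSCAN, ZSCAN and ZXD names), 15 were higher and 3 lower in DoG-inducing than in control 2nd-step libraries, against 74.6% and 11.7% of all DoGs, and 4 were higher and 6 lower after centring. In the conventional preparation 5 were higher and 2 lower (2 and 5 after centring), against 22.2% and 11.0%. ZBTB7B, a regulator of CD4+ T-cell fate, rose by 4.36 on the log2 scale in the 2nd-step fraction, and ZFP14 and ZFP64 fell by 3.38 and 3.07. Of 20 genes of the KRAB pathway, 6 had a DoG with FPKM. CBX5, which encodes the heterochromatin protein HP1α, HDAC2, ATF7IP, CHD3 and DNMT1 were higher in the 2nd-step fraction, with log2 changes of 3.73, 3.40, 2.90, 1.67 and 1.58, and MORC2 at 0.75 was not called. The 5 called higher are to be read against 74.6% of all DoGs, and after centring 2 were called higher and 1 lower, with CHD3 at -0.58, DNMT1 at -0.67 and MORC2 at -1.49.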

How the data were processed

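Total RNA from HEK293 cells was sequenced by the authors as 16 libraries, 2 replicates in each of 8 groups. They trimmed reads with fastp 0.25.0, removed rRNA reads with Bowtie2 2.5.4, aligned to GRCh38 with STAR 2.7.11b and called DoGs per library with ARTDeco on GENCODE v49, over at least 10 kb in windows of 5 kb with a coverage of 0.5. The deposited FPKM values were computed by the authors over 1 region per gene, were listed in steps of 0.01, and the reads used for scaling are not given in the sources used here. Whole reads were not recovered, and nothing gives the depth of single libraries beyond a nominal 20 to 60 M read pairs each. The authors' region lists, per the file contents, give the start and end of each DoG, from which lengths were taken.

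Gene symbols, neighbours and the gene ends used for distances came from GENCODE v44 on GRCh38. Gene-end sequences were instead read up to the base before the authors' called region, which for ZNF180 lay 3471 bp past the v44 end. For 66 of the 67 members the FPKM region had the length of the longest listed one (tolerance 1 bp). FPKM was compared as log2(FPKM + 0.1) in limma 3.58.1 (R 4.3.3) with an intensity trend over 3139 regions, two-sided, with Benjamini-Hochberg adjustment over all regions in each of 12 comparisons, and the model was tested on simulated data. Counts and lengths were computed with Python 3.11.15, pandas 2.3.3 and numpy 2.4.6, and plots with matplotlib 3.10.9. The members, lists and tests were chosen with earlier results of these data known. Genes were named by fixed ranks: the 5 highest and 3 lowest called changes per preparation, the 3 highest and 3 lowest between preparations and in each interaction, the 5 longest regions, the 3 extreme length ratios, the 5 highest levels, and those called in all libraries of a condition or in no DoG-inducing one. Outside these ranks, ZNF443, ZNF695 and ZNF764 were named after their values were seen, and ZNF3 and ZNF33A were also named. Alternatives were other pseudocounts, a filter on FPKM, centring, a replicate block, fewer libraries, no trend, the adjusted p alone, other listing and length rules, and members whose region reaches no other gene. The labels call the replicates biological. By the methods, the conventional and hiAGPC preparations shared their samples and the SERIPH fractions came in turn from one lysate, but no label ties a replicate number to a shared sample, so p-values measure the spread between these libraries. Protein sequences were not analysed here. The deposited values cover regions past gene ends, so marker genes of the cell line were not checked.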

Additional observations from a re-analysis of the deposited data

Results flagged for a closer look

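The effect of the DoG-inducing condition differed between preparations by the interaction test in limma. Members called in some preparations alone had to be high there, so these differences describe them and support nothing. Between hiAGPC and the conventional preparation, 42 of 67 ZNF gene DoGs (62.7%) differed, all with the higher log2 change in hiAGPC, against 64.7% of all DoGs, a share close to that of the members. After centring of the libraries 1 was higher and 14 were lower, and ZNF771 and ZNF597 were no longer called. The largest differences in log2 change were those of ZNF691 (2.40 ± 0.112, SE), ZNF771 (2.33 ± 0.12) and ZNF597 (2.29 ± 0.172), with adjusted p of 4.99e-09, 8.3e-09 and 1.28e-07. ZNF597 had 0.06 and 0.09 FPKM in the DoG-inducing conventional and 0.81 and 0.63 in the hiAGPC libraries.

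Between both steps of SERIPH, 46 members differed, 43 with the higher log2 change in the 2nd step and 3 with the lower, against 77.1% of all DoGs, and after centring 6 were higher and 21 lower. The log2 change was higher in the 2nd step by 3.16 ± 0.112 for ZNF691, 3.11 ± 0.327 for ZNF436 and 3.06 ± 0.12 for ZNF771 on the log2 scale, with limma adjusted p of 2.15e-10, 1.75e-06 and 3.87e-10. It was more negative in the 2nd step for ZNF573 (-1.67), ZNF559 (-1.17) and ZNF680 (-1.02), with adjusted p of 2.89e-05, 6.52e-06 and 0.000306. For ZNF559 and ZNF680 the control 2nd-step libraries were the highest (1.14 and 1.08 and 1.25 and 1.25 FPKM), and for ZNF573 the DoG-inducing 2nd-step libraries were the lowest (0.1 and 0.07).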

How the results depend on the processing

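Centring turned the direction of counts and of 7 named values, as given below. The counts under these alternatives have no share over all DoGs beside them, so they show only how the counts moved. Counts of called members are given in this order: DoG-inducing against control in the conventional, hiAGPC, 1st-step and 2nd-step preparations, then the 2nd against the 1st step and against hiAGPC in control cells, then hiAGPC against conventional, the 2nd against the 1st step and the 2nd step against hiAGPC in the DoG-inducing condition, then the interactions for hiAGPC and for the 2nd step. As reported they were 24, 48, 19, 50, 6, 2, 44, 53, 5, 42 and 46. With a pseudocount of 1 they were 1, 7, 0, 13, 0, 0, 5, 11, 0, 4 and 9, and where 0 were called, 51, 32, 27 and 50 members had an unadjusted limma p under 0.05. With a pseudocount of 0.01, those over 1.5 times away were 39 (conventional), 41 (1st step), 15 (2nd against 1st step, control) and 9 (2nd step against hiAGPC, DoG-inducing). At the adjusted p alone they were 56 and 57 in the conventional and 1st-step preparations, 5 for hiAGPC against conventional in control cells, 30 and 18 for the 2nd step in control cells and 48 for the 2nd step against hiAGPC in the DoG-inducing condition. Without the 28 members whose region reaches another gene, which leaves fewer members, they were 13, 25, 10, 27, 2, 1, 25, 29, 2, 23 and 25. Centring each library on its median DoG removes the shift of all DoGs (log2 medians of 0.44, 1.86, 0.43 and 2.38 in the conventional, hiAGPC, 1st-step and 2nd-step preparations) and left 19, 20, 15 and 27 calls for hiAGPC against conventional, the 2nd against the 1st step and both interactions, of which 2, 3, 1 and 6 were higher and the rest lower, whereas most had been higher as reported. In the 2nd-step fraction, 30 of the 39 members called higher lost the call and 2 were called lower. The filter on mean FPKM, the libraries of a comparison alone and no intensity trend kept every count within 1.5 times.

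Regions of at least 20 kb lowered the members listed in both replicates to 3, 6, 0 and 5 in control cells and to 4, 3 and 23 in the DoG-inducing conventional, 1st-step and 2nd-step groups. A listing in either replicate gave 15 in the control and 9 in the DoG-inducing 1st-step fraction. Where no other gene was reached, the 2nd-step region was longer than that of hiAGPC for 1 member in control cells and for 4 in the DoG-inducing condition, with 3 shorter. No label ties replicate numbers to shared samples, and deviations of same-numbered libraries correlated at -0.104 to 0.143 over the 28 pairs of groups. With the replicate number as a block the counts stayed at 24, 48, 19 and 50 for the DoG-inducing condition, and the block changed no other count or named call. Of 93 log2 changes of named genes, a pseudocount of 1 ended 56 calls and the libraries of the comparison alone 1. Centring ended 21 calls without a change of sign and newly made 4. It turned the sign of 7 of the 93 changes: in the 2nd-step fraction ZNF443 (-1.08), CHD3 (-0.58), DNMT1 (-0.67) and MORC2 (-1.49), in the conventional preparation ZNF207 (-0.35) and ZNF34 (-0.34), and in the 1st-step fraction ZNF207 (-0.31). CHD3 and DNMT1 thereby also lost their calls, and ZNF443 went from called higher to called lower. Leaving out each library in turn gave 23 to 25, 48 to 48, 17 to 26 and 50 to 51 calls for the DoG-inducing condition in the 4 preparations, 0 to 0, 5 to 8 and 2 to 3 between preparations in control cells, 43 to 45, 52 to 55 and 4 to 7 in the DoG-inducing condition, and 40 to 44 and 46 to 50 for the interactions, where a group left with 1 library was assumed to vary like the others. The uncalled change of ZNF695 in the conventional preparation ran from -0.13 (without control replicate 1) to 0.0753 (without control replicate 2). With 2 replicates per group and FPKM in steps of 0.01, changes of the lowest regions could not be measured well.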
